A study of Mus musculus with 15 samples.

Results

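Transcript levels of 10 genes that place, maintain, oxidise or protect DNA methylation were followed in mouse embryonic stem cells (ESCs) with raised Zscan4 and in 2-cell embryos with lowered Zscan4. The genes are Dnmt1, Uhrf1, Dnmt3a, Dnmt3b, Dnmt3l, Tet1, Tet2, Tet3, Dppa3 and Gadd45b, each found by its gene symbol. All 10 were found among the 53564 genes of the embryo table. Of the 10, 8 were found among the 51627 genes of the ESC table, and Uhrf1 and Dnmt3l were not analysed in the ESCs. Every gene found also passed the filter on low values.

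The 15 RNA-Seq libraries formed 4 groups. In J1 cells, a mouse ESC line grown without feeder cells and given the passage label PN+8, 2 libraries carried the genotype label Zscan4 OE, for overexpression, and 2 were wild type. In embryos at the 2-cell stage, 6 libraries were labelled Zscan4 RNAi and 5 wild type. The labels name no construct or promoter for the overexpression, no RNAi agent, no mouse strain and no number of embryos per library. They also name genomic DNA and a transposase-based DNA kit, although every title says RNA-Seq, and the values are gene-level reads. Nothing says that libraries of a group came from separate cultures or embryo pools, so the spread behind each p-value is that between the libraries at hand and may be technical.

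DNA methylation in mammals sits mainly on cytosines followed by guanine (CG sites). DNMT3A and DNMT3B place it on unmethylated DNA, helped by the inactive cofactor DNMT3L, and DNMT1, guided by UHRF1 to newly replicated CG sites, copies it to the daughter strand. TET enzymes oxidise methylated cytosine on the way to its removal. In the mouse zygote, TET3 oxidises mainly the paternal genome while DPPA3 (Stella) shields the maternal one and holds UHRF1 back, and ESCs use TET1 and TET2. GADD45B is a stress-induced protein that has been linked to active demethylation.

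In each setting 1 gene passed the test. With Zscan4 overexpression in ESCs, Dnmt3b rose 4.26-fold and was the 1 of 8 genes past the threshold (adjusted p under 0.05, limma with Benjamini-Hochberg adjustment over all 20888 genes tested). In that comparison 23.2% of all genes passed, 11.7% upward and 11.4% downward. With Zscan4 RNAi in embryos, Gadd45b fell and was the 1 of 10 genes past the threshold, with a mean 3.49-fold lower than in wild type. There, 18.2% of 16417 genes passed, 6.13% upward and 12% downward; the calls were 1007 higher and 1976 lower, and 1396 and 1609 under quantile normalisation. Neither 1 of 8 nor 1 of 10 exceeds the share of all genes called in either direction. Taken by direction, 1 of 8 is near the 11.7% upward and 1 of 10 near the 12% downward. The median log2 fold change over the named genes was -0.11 in the ESCs, against -0.02 over all genes tested, and 0.10 in the embryos, against -0.03.

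The promoters of these 2 genes are shown because the enzymes among the 10 act on CG sites. Each window runs from 250 bases before to 50 bases after the annotated start (RefSeq, GRCm38.p6, the assembly of mm10), 5′ to 3′ on the strand of the gene, with CG dinucleotides in capitals. The Dnmt3b window is chr2:153649199-153649498 and the Gadd45b window is chr10:80929841-80930140, both on the plus strand.
Dnmt3b: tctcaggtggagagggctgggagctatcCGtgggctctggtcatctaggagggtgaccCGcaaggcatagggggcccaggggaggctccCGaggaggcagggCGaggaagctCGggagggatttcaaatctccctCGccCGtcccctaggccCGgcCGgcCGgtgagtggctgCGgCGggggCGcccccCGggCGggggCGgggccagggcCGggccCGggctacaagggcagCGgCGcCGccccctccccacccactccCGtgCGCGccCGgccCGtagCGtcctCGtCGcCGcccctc
Gadd45b: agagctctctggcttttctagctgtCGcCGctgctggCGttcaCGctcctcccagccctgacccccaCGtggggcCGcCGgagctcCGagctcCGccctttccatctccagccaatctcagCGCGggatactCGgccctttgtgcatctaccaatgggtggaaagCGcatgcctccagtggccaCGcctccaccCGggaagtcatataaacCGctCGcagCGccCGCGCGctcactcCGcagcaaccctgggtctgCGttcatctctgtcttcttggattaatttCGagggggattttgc
The Dnmt3b window holds 30 CG dinucleotides and the Gadd45b window 24. Over all 32851 promoter windows of that length the median is 7, with quartiles of 3 and 20. At least as many CGs as in Dnmt3b were found in 11.7% of them, and at least as many as in Gadd45b in 20%. CACGTG, the E-box of MYC and related factors, which reads the same on both strands, occurs in the Gadd45b window, in 1 window each of Dnmt3a and Dnmt3l, and in 7.15% of all windows. TGCACAC, the motif known for mouse ZSCAN4C, searched on both strands, occurs in neither printed window, in a window of Tet3 and 1 of Uhrf1, and in 4.4% of all windows. The 9 genes with an entry have 16 windows, and their CG counts run from 2, in the most upstream Dnmt1 window, to 57, in Tet2. No methylation was measured in these libraries.

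On the mm10 assembly with GENCODE vM21, the Dnmt3b gene spans chr2:153649450-153687730 and Gadd45b chr10:80930073-80932204. The maintenance genes Dnmt1 and Uhrf1 span chr9:20907209-20959888 and chr17:56303321-56323486. Dnmt3a lies at chr12:3806007-3914443 and Dnmt3l at chr10:78041947-78063622. Tet1 lies at chr10:62804570-62908996, Tet2 at chr3:133463679-133545139, Tet3 at chr6:83362373-83459084 and Dppa3 at chr6:122626410-122630272.

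Before the methylation genes, the targeted family was checked. The summed level of the Zscan4 genes, near-identical copies that share reads, was 20005 and 19449 normalised reads in the OE libraries, against 152 and 212 in wild type ESCs, a 108.4-fold difference. A normalised read is a read divided by the size factor of its library. The exact two-sided permutation p was 0.333, the smallest that 6 assignments allow. In RNAi embryos the sums were 262, 164, 379, 13.9, 383 and 174, against 907, 1064, 680, 676 and 345 in wild type embryos, 3.20-fold lower (exact two-sided permutation p = 0.013, 462 assignments). Wild type library 5 lies below RNAi libraries 3 and 5, so the groups overlap.

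Libraries differed in ways that the labels do not describe. The 2 OE libraries were further apart than the 2 wild type ESC libraries: the median SD of log2 levels was 0.411 in OE and 0.0907 in wild type. The ESC libraries held 21820093 to 26555027 assigned reads and the embryo libraries 695524 to 1432566, and 1 read was worth up to 1.39 normalised reads in an embryo. Among the embryos, stored maternal transcripts had a mean log2 level of 7.94 to 9.06 in RNAi, against 7.82 in wild type library 5 and 7.09 to 7.34 in the other wild type libraries. Ribosomal protein genes had 3.80 to 6.10 in RNAi, against 6.05 in wild type library 5 and 7.06 to 7.69 in the others. Of 20 maternal genes 9 rose and 0 fell in RNAi, and of 28 ribosomal protein genes 0 rose and 23 fell. Of 20 genes of the 2-cell stage other than Zscan4, up to 2 had no read in an embryo library. Their mean log2 level was 4.27 to 6.07 in RNAi, against 5.69 to 6.31 in wild type. Of these 20 genes, 2 rose and 8 fell in RNAi, and in the ESCs 13 of 19 rose and 1 fell in OE. Of 14 cumulus and granulosa cell markers, 9 to 11 had no read in each RNAi library and 10 to 11 in each wild type library. In bulk samples, fewer cells of a type and less RNA per cell cannot be told apart, and all levels are relative to the rest of the library.

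Of the maintenance pair, Dnmt1 did not pass the threshold in either setting and Uhrf1 did not pass in embryos. Dnmt1 had 8466 and 6971 normalised reads in OE, against 9197 and 9318 in wild type ESCs. Both OE libraries are below both wild type ones. The log2 fold change was -0.27 (95% interval -0.75 to 0.21; limma adjusted p = 0.321).

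In embryos, Dnmt1 had a lowest, median and highest value of 17.2, 40.2 and 47.6 in RNAi, against 20.1, 28.0, 30.6, 49.2 and 40.1 in wild type. The groups overlap throughout, and the log2 fold change was 0.16 (95% interval -0.64 to 0.96). Uhrf1 had 75.6, 105 and 304 in RNAi, against 115, 77.5, 69.6, 78.4 and 296 in wild type, with a log2 fold change of 0.17 (95% interval -0.67 to 1.0). Each group has 1 library far above the others, RNAi library 6 and wild type library 5. Per kilobase of annotated exon, Uhrf1 was above Dnmt1 in all 11 embryo libraries, by 3.14 to 13.8 times in RNAi and 2.76 to 12.8 times in wild type.

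Of the de novo methyltransferases, Dnmt3b rose in OE cells. It had 7363 and 4529 normalised reads in the OE libraries, against 1433 and 1361 in wild type ESCs. Both OE libraries are above both wild type ones, as for 34.2% of all genes tested; for 34.6% both were below, and the groups of 68.8% did not overlap. Of the 8 genes 5 did not overlap, Dnmt3a, Dnmt3b and Dppa3 with OE higher and Dnmt1 and Gadd45b with OE lower. The log2 fold change was 2.05 (SE 0.28, 95% interval 1.30 to 2.80; limma adjusted p = 0.0193). Without wild type library 1 or 2, and with the tested genes kept, 0 genes passed in limma (3617 and 3646 at an unadjusted p under 0.05) and the adjusted p of Dnmt3b was 0.261 and 0.26. With the filter applied anew it was 0.00725 and 0.0102, and over all alternatives it ran from 1.23e-08 to 0.261. The log2 fold change stayed between 1.70 and 2.40. Dnmt3b overlaps the antisense gene Dnmt3bos but shares no exonic base with it.

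Dnmt3a, the second catalytic enzyme, had 2855 and 2363 normalised reads in OE, against 1637 and 1775 in wild type ESCs. Both OE libraries are again above both wild type ones, but the log2 fold change of 0.61 did not pass (95% interval 0.13 to 1.09; limma adjusted p = 0.0753). Its exons share 133 bases with the antisense Dnmt3aos, and the strand setting of the counting is not given in the sources used here, so its level is uncertain to that extent. Per kilobase, Dnmt3b stood at 8.41 and 6.25 times Dnmt3a in OE, against 2.85 and 2.5 times in wild type ESCs. This ratio was formed after the single values were known and was not tested.

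**Figure D1:**
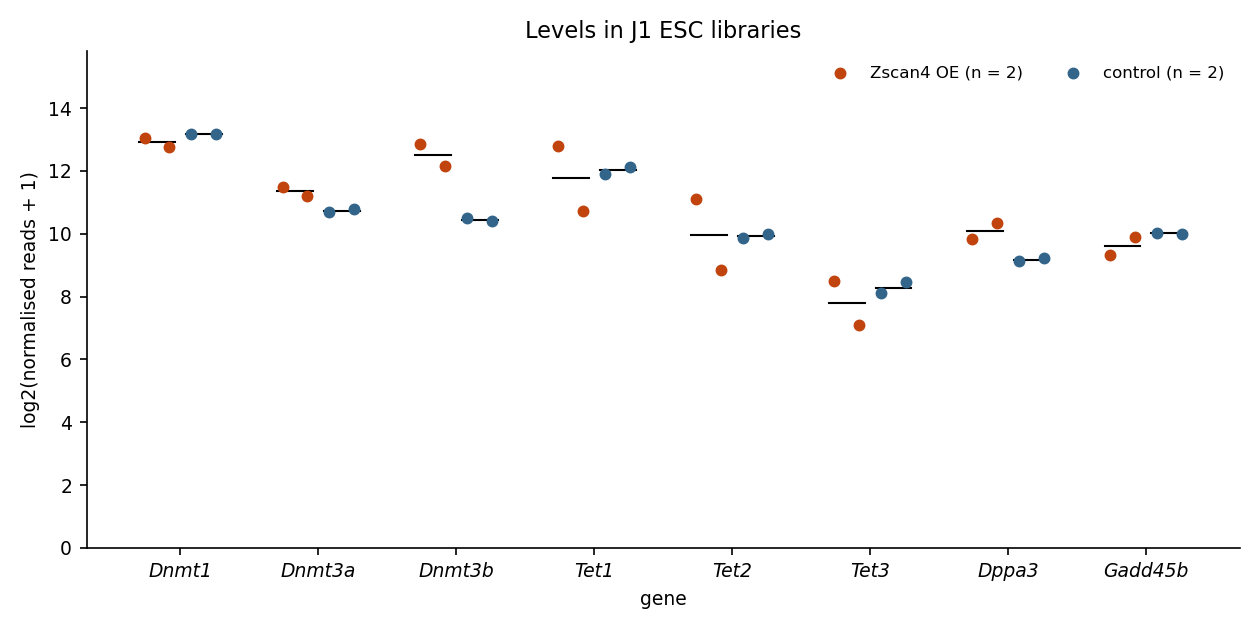
Levels of 8 genes in J1 ESC libraries as log2(normalised reads + 1). Each point is 1 library, orange for Zscan4 OE (n = 2, OE 1 left of OE 2) and blue for wild type control (n = 2), and bars are group means. Dnmt3b lies above both controls in both OE libraries, whereas OE 1 and OE 2 lie on opposite sides of the controls for Tet1, Tet2 and Tet3.

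In embryos the de novo genes were low or variable. Dnmt3a had 53.5, 89.2 and 178 as lowest, median and highest value in RNAi, against 78.0, 95.9, 50.1, 111 and 101 in wild type (log2 fold change 0.13, 95% interval -0.59 to 0.85). Dnmt3b had 1.64, 16.8 and 29.0 in RNAi, against 10.9, 5.16, 19.5, 14 and 39.1 in wild type. Its log2 fold change of -0.43 has an interval from -1.85 to 0.99, which covers zero, and no difference was called.

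The cofactor Dnmt3l had 48.7, 105 and 175 in RNAi, against 48.6, 42.8, 58.4, 44.5 and 176 in wild type. All 6 RNAi values lie above 3 of the wild type values, and wild type library 5 is above every RNAi value. Its log2 fold change was 0.68 (95% interval -0.18 to 1.54; limma adjusted p = 0.260). Without wild type library 5 it was 1.05 with a limma adjusted p of 0.0512, or 0.05 with the filter applied anew. Dnmt3l did not pass in any of 31 alternatives. Over the libraries left out its log2 fold change ran from 0.52 to 1.05. Dnmt3l shares 67 exonic bases with Aire on the opposite strand.

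The 3 TET genes split the OE libraries. Tet1 had 7114 and 1683 normalised reads in OE libraries 1 and 2, against 3851 and 4426 in wild type ESCs. Tet2 had 2221 and 454 in OE, against 940.1 and 1018 in wild type. Tet3 had 357 and 135 in OE, against 274 and 349 in wild type. For each of them OE library 1 is above both wild type libraries and OE library 2 below both.

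The log2 fold changes were accordingly undetermined, at -0.25 for Tet1 (95% interval -2.19 to 1.68), 0.04 for Tet2 (-2.08 to 2.16) and -0.49 for Tet3 (-1.90 to 0.92). OE library 1 held 4.23 times the Tet1, 4.89 times the Tet2 and 2.65 times the Tet3 of OE library 2. Among 14489 genes with a mean of at least 20, a difference as large as these between the OE libraries was seen in 2.36%, 1.92% and 6.93%. Leaving out OE library 1 put Tet1 at -1.29 and Tet2 at -1.10. Leaving out OE library 2 put Tet1 at 0.79 and Tet2 at 1.18. With 1 OE library left, the spread within OE cannot be estimated, so only these log2 fold changes are given.

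Annotated exon length moved with that difference. Between the OE libraries, the median log2 difference (OE 1 minus OE 2) was -0.697 over 656 genes under 1000 bases and 0.708 over 1287 genes over 10000 bases. Between the wild type ESC libraries it was 0 and -0.0234. Tet1, Tet2 and Tet3 have 15457, 16870 and 16695 exonic bases. Dnmt3a, at 16642 bases, differed by only 0.273. Dppa3, with 892 bases, and Gadd45b, with 1589, were higher in OE library 2. Length also went with the difference between OE and wild type. Its median log2 fold change was 0.243 over the genes under 1000 bases and 0.293 over those of 1000 to 2000. It was -0.175 over genes of 5000 to 10000 bases and -0.306 over those above 10000. The part of length in these results was not tested.

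**Figure D2:**
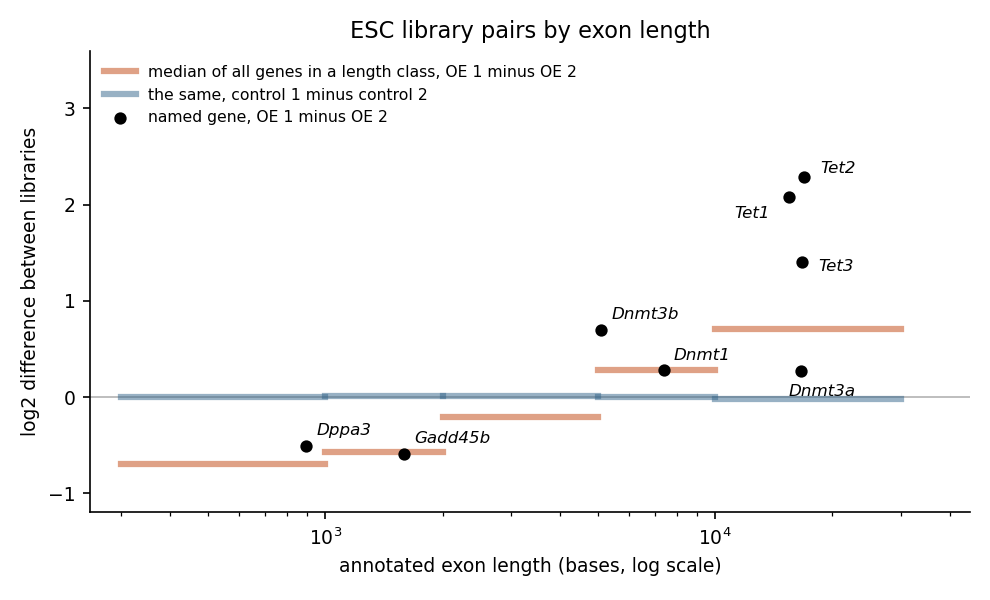
Log2 difference between the 2 OE libraries (OE 1 minus OE 2) against annotated exon length in bases on a log axis. Black points are the 8 named genes, orange bars the median of all genes in a length class and blue bars the same for control 1 minus control 2. The orange medians run from -0.697 for the shortest class to 0.708 for the longest while the blue ones stay near 0, and Tet1, Tet2 and Tet3 lie above the median of their class.

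In embryos the TET genes had unlike levels and none passed. Tet3 had 208, 230 and 391 as lowest, median and highest value in RNAi, against 166, 133, 104, 139 and 277 in wild type. All 6 RNAi values are above 4 of the 5 wild type values, and wild type library 5 is above 5 of the RNAi values. Its log2 fold change was 0.67 (95% interval 0.06 to 1.29; limma adjusted p = 0.115). Without wild type library 5 it was 0.88 and passed, with a limma adjusted p of 0.0309. Tet3 passed in only 3 of 31 alternatives. Over the libraries left out its log2 fold change ran from 0.53 to 0.88.

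Tet1 had 0, 9.53 and 14.3 normalised reads in RNAi, against 26.0, 14, 11.1, 21.1 and 25.4 in wild type. RNAi library 4 had no Tet1 read, which at its depth allows up to 3.48 normalised reads. Tet1 had a log2 fold change of -1.43 (95% interval -2.78 to -0.08; limma adjusted p = 0.128), from 58 reads over the 6 RNAi libraries and 102 over the 5 wild type libraries. Tet2 had 0, 5.31 and 9.61 in RNAi, against 5.87, 5.16, 0, 8.20 and 9.78 in wild type, with an interval of the log2 fold change from -1.60 to 1.46. Its zero in wild type library 3 allows up to 4.17 normalised reads, and it shares 43 exonic bases with the antisense Gm42567.

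Per kilobase, Tet1 stood at 0.0568, 0.0334, 0.0716, 0, 0.0701 and 0.0144 times Tet3 in RNAi embryos, against 0.169, 0.114, 0.115, 0.163 and 0.0992 in wild type. These ratios do not overlap between the groups, although Tet1 alone does, at up to 14.3 normalised reads in RNAi and from 11.1 in wild type. Of the other pairs formed in embryos, Tet1 over Tet2 did not overlap where Tet2 had a read. It reached 2.4 in RNAi and began at 2.81 in wild type, from 37 Tet2 reads over the 6 RNAi libraries and 31 over the 5 wild type libraries. Dnmt3b over Dnmt3a, Dnmt3l over Dnmt3a and Uhrf1 over Dnmt1 overlapped. All pairs were formed after the single values were known and were not tested. The share of all gene pairs without overlap is not given here. In the ESCs, where Tet1 is more abundant than Tet3, the ratio of Tet1 to Tet3 was 21.5 and 13.5 in OE, against 15.2 and 13.7 in wild type.

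Dppa3 was the most abundant of the 10 per kilobase in embryos of both groups. It had 2078, 3113 and 5011 normalised reads as lowest, median and highest value in RNAi, against 4580, 4394, 3487, 2601 and 1458 in wild type. The groups overlap across their whole range, with a log2 fold change of 0.06 (95% interval -0.61 to 0.73; limma adjusted p = 0.916). The sign turns under quantile normalisation, at -0.56 with the median of all genes at 0.14.

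In ESCs, Dppa3 had 904 and 1284 in OE, against 562 and 594 in wild type, a mean 1.89-fold higher. Both OE libraries are above both wild type ones, and the log2 fold change of 0.90 (95% interval 0.26 to 1.53) missed the threshold in limma at an adjusted p of 0.0603. DESeq2 on the recovered reads gave 0.92 with an adjusted p of 0.0212.

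Gadd45b fell in RNAi embryos. It had 6.94, 17.3 and 42.4 normalised reads as lowest, median and highest value in RNAi, against 115, 72.3, 68.2, 43.3 and 72.3 in wild type. Every RNAi value is below every wild type value, as for 4.28% of all genes tested. The groups were apart in the other direction for 3.05% and in either for 7.33%, and for no other of the 10. The nearest values, 42.4 in RNAi library 5 and 43.3 in wild type library 4, came from 47 and 37 reads. The separation of these libraries therefore depends on the size factors. The means were 21.2 ± 15.4 in RNAi (SD, n = 6) and 74.2 ± 25.8 in wild type (SD, n = 5). Gadd45b had a log2 fold change of -2.02 (SE 0.48, 95% interval -3.02 to -1.01; limma adjusted p = 0.00885), from 134 reads in RNAi and 395 in wild type.

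The call held under all 31 alternatives, with log2 fold changes of -2.27 to -1.72 and adjusted p-values of 0.0036 to 0.03. Wild type library 5, which stood nearest to RNAi in maternal and ribosomal transcripts, had 72.3 normalised reads of Gadd45b, as had library 2, and without it the log2 fold change was -2.01 (limma adjusted p = 0.0123). Ribosomal protein genes fell and maternal transcripts rose in the same libraries. Genes of 1000 to 2000 exonic bases, the class of Gadd45b at 1589, had a median log2 fold change of -0.355 in RNAi. The medians of the other length classes lay between -0.0947 and -0.0416. The part of these shifts in the result was not tested. The 3 genes most like Gadd45b over the 11 libraries, out of 6764 searched, were Pbdc1, Clp1 and Tsr1. Their centred log2 levels differed from its own by 0.346, 0.423 and 0.43 on average, over a range of 3.87 for Gadd45b.

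In ESCs, Gadd45b had 638 and 961 normalised reads in OE, against 1038 and 1018 in wild type. Both OE libraries are below both wild type ones, and the log2 fold change of -0.39 (95% interval -1.08 to 0.29; limma adjusted p = 0.311) did not pass. Levels cannot be compared between ESCs and embryos, since the tables were normalised separately.

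**Figure D3:**
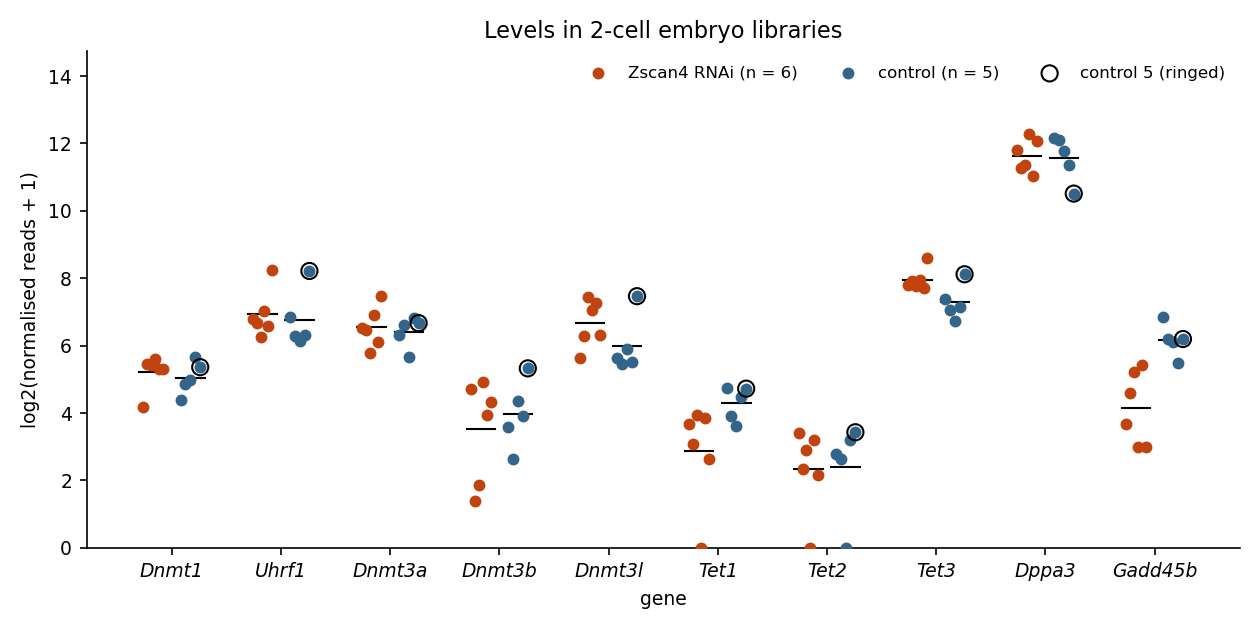
Levels of 10 genes in 2-cell embryo libraries as log2(normalised reads + 1). Each point is 1 library, orange for Zscan4 RNAi (n = 6) and blue for wild type control (n = 5), bars are group means and control 5 is ringed. The Gadd45b points of the groups do not overlap. Control 5 is the highest control for Uhrf1, Dnmt3b, Dnmt3l, Tet2 and Tet3 and the lowest for Dppa3.

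**Figure D4:**
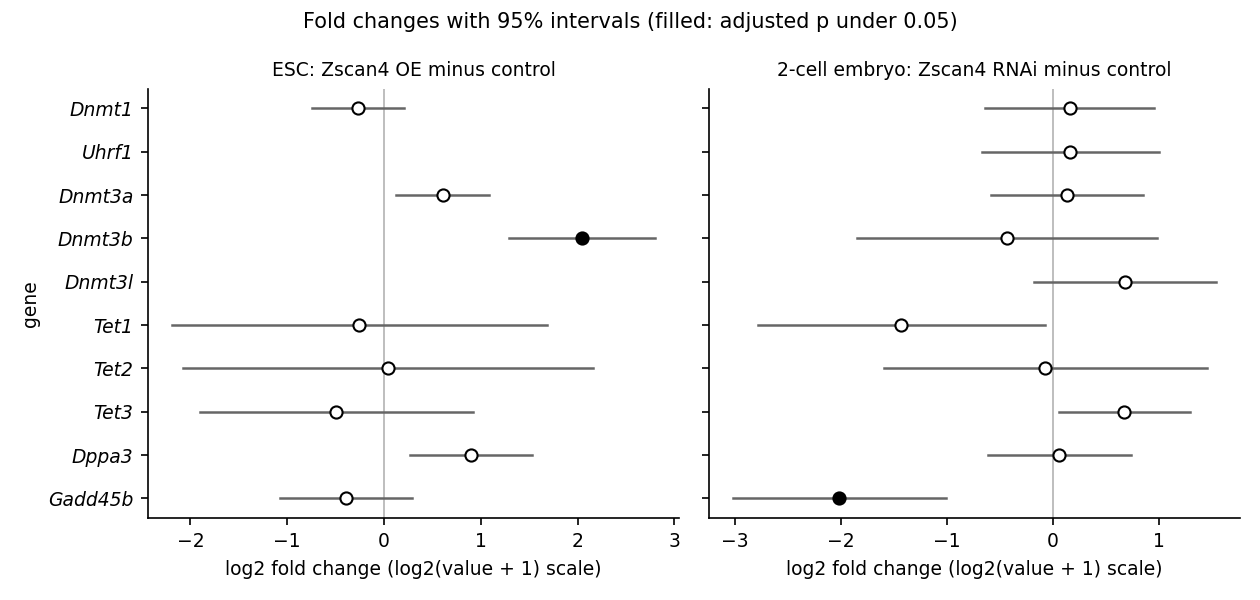
Log2 fold changes with 95% intervals of each gene, Zscan4 OE minus control in ESCs on the left and Zscan4 RNAi minus control in 2-cell embryos on the right, with filled points for an adjusted p under 0.05. Dnmt3b is filled at 2.05 in ESCs and Gadd45b at -2.02 in embryos, and the TET intervals in ESCs span more than those of the other genes.

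Set per kilobase of annotated exon, the members had a different order in each table. Exon length here is the union over all annotated transcripts of a gene, which can exceed the length of any 1 transcript. Levels and ratios per kilobase between genes are therefore approximate. The OE means also join 2 libraries that differed with exon length. In OE cells the mean levels were Dppa3 1227, Dnmt3b 1165, Dnmt1 1046, Gadd45b 503, Tet1 285, Dnmt3a 157, Tet2 79.3 and Tet3 14.7 normalised reads per kilobase. In wild type ESCs Dnmt1 led with 1255, followed by Dppa3 with 648 and Gadd45b with 647, which do not differ beyond their spread. Dnmt3b with 274 and Tet1 with 268 came next and differ by less than the SD of 26.3 for Tet1, and Dnmt3a had 102.5, Tet2 58.0 and Tet3 18.7. In OE, neighbours differ by less than 1 SD of the more variable gene, except Dnmt1 from Gadd45b and Dnmt3a from Tet2.

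In RNAi embryos the order was Dppa3 at 3757, Dnmt3l at 37.1, Uhrf1 at 31.8, Tet3 at 15.2 and Gadd45b at 13.4 normalised reads per kilobase, with Dnmt3a, Dnmt1, Dnmt3b, Tet1 and Tet2 at 5.98 or less. In wild type embryos Dppa3 at 3704 was followed by Gadd45b at 46.7, Uhrf1 at 29.9, Dnmt3l at 24.8 and Tet3 at 9.81. Apart from Dppa3, which lies above every other gene in each library, neighbours among the other 4 differ by less than 1 SD of the more variable gene.

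**Figure D5:**
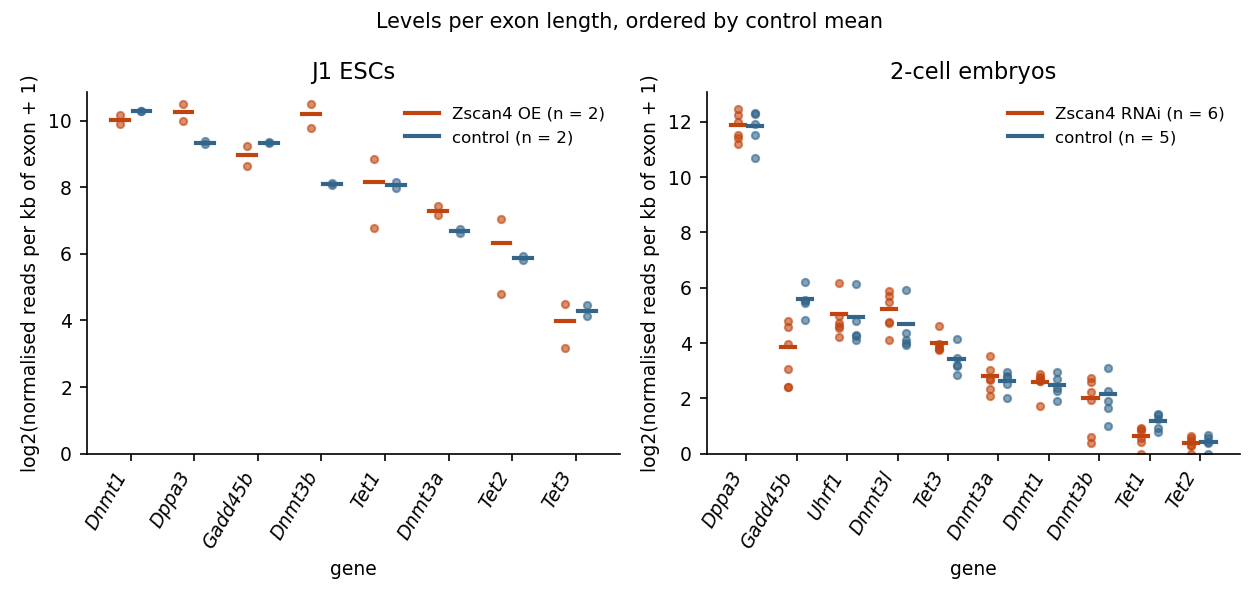
Levels of each gene as log2(normalised reads per kilobase of exon + 1), ordered by the control mean, with ESCs on the left and 2-cell embryos on the right. Points are libraries and bars group means, orange for Zscan4 OE (n = 2) or RNAi (n = 6) and blue for control (n = 2 and n = 5). Dppa3 stands far above the rest in embryos of both groups, and Gadd45b moves down the order in RNAi.

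The shares of genes called in the pathway lists below are read against 23.2% of all genes in the ESCs and 18.2% in the embryos, and nothing particular to a list follows from a share near these.

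Genes listed as readers of methylated CG sites, a term for proteins that bind the mark, did not pass the threshold. In OE cells 0 of 9 passed in limma, with a median log2 fold change of -0.20 (5 at an unadjusted p under 0.05; 0 with edgeR, 3 with DESeq2 and 1 with voom), and in RNAi embryos 0 of 8, with a median of 0.11 (0 at an unadjusted p under 0.05, and 0 with edgeR, DESeq2 and voom).

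Of the genes that remove oxidised bases, repair the gap or deaminate cytosine, most were not called. In OE cells 1 of 18 rose and 5 fell (median -0.28), against 11.7% of all genes higher and 11.4% lower. Apex1, the endonuclease that cuts at the abasic site, had 3623 and 6416 normalised reads in OE, against 1340.1 and 1268 in wild type. The glycosylase Neil2 had 181 and 118 in OE, against 1537 and 1532 in wild type, and fell 10.3-fold. Neil3, a related glycosylase, was 6.65-fold lower and the cytidine deaminase Apobec1 2.62-fold lower in OE.

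In RNAi embryos 2 of 15 of these genes rose and 1 fell (median 0.23), together near the 18.2% of all genes. Apex1 fell 2.92-fold, with 11.7 to 46.7 normalised reads in RNAi, against 47.2 to 115 in wild type, and held under all 31 alternatives. The repair polymerase Polb was 2.71-fold and Neil3 2.74-fold higher in RNAi, with adjusted p-values up to 0.0716 and 0.0806 under the alternatives.

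Among partners and regulators of the methyltransferases, 3 of 19 rose and 1 fell in OE cells (median 0.28), no more than the 23.2% of all genes. Zfp57, an imprint-protecting zinc finger gene, had 7369 and 10396 normalised reads in OE, against 1742 and 1599 in wild type, 5.32-fold higher. Its corepressor Trim28 was 2.76-fold and the histone methyltransferase Setdb1 1.78-fold higher, and Prdm14, a repressor of de novo methyltransferases in ESCs, was 1.96-fold lower in OE.

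In RNAi embryos 1 of 20 rose and 2 fell (median -0.30), below the 18.2% of all genes. Zfp57 was again higher, with 198 to 1028 normalised reads in RNAi, against 101 to 176 in wild type, 3.26-fold. Trim28 fell 2.84-fold, with 18.6 to 64.0 in RNAi, against 69.4 to 153 in wild type. Setd2, whose histone mark recruits DNMT3 enzymes, fell 3.36-fold, with 27.9 to 66.6 in RNAi, against 75.3 to 240 in wild type. These 3 calls held under all 31 alternatives.

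The methyl donor cycle makes and regenerates S-adenosylmethionine. In OE cells 2 of 15 rose and 2 fell (median 0.31), near the 23.2% of all genes. Mat2a, the synthetase of the donor, had 7797 and 6369 normalised reads in OE, against 2857 and 2773 in wild type, 2.52-fold higher. Its regulatory subunit Mat2b was 1.94-fold and Ahcyl1 2.00-fold lower in OE.

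In RNAi embryos 1 of 15 rose and 2 fell (median -0.07), near the 18.2% of all genes. Mat2a was 3.41-fold lower in RNAi, where 1 wild type library, number 5, overlaps the RNAi range. Mat2a lost its call in 4 of 31 alternatives, those without wild type library 2 or 4 (limma adjusted p up to 0.0533). Shmt1, which loads folate with carbon from serine, had 3.91 to 108 in RNAi, against 113 to 221 in wild type, 3.89-fold lower. Mat2b was 1.88-fold higher in RNAi, and lost its call in 16 of 31 alternatives.

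Of the germline genes whose promoters are silenced by methylation in somatic cells, 6 of 18 were called in each comparison. In OE cells 4 of 18 rose and 2 fell (median -0.13), against 11.7% of all genes higher and 11.4% lower. Asz1, a gene of the piRNA pathway, had 95.7 and 94.2 normalised reads in OE, against 7.62 and 8.43 in wild type, 11.8-fold higher. Stk31 was 2.74-fold and Mael 2.13-fold higher, while the synaptonemal complex gene Sycp3 was 4.66-fold and the bromodomain gene Brdt 2.42-fold lower in OE. All the ESC list genes named here lost their call when either wild type library was left out and the tested genes were kept. With the filter applied anew, Apex1, Neil2, Neil3, Zfp57, Asz1 and Sycp3 kept it without either library and the other named ones lost it. Brdt lost its call in 9 of 18 alternatives, Setdb1 in 7, and Prdm14 and Mael in 5 each.

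In RNAi embryos 3 of 18 rose and 3 fell (median -0.46), against 6.13% and 12% of all genes. Brdt had 731 to 1829 in RNAi, against 467 to 637 in wild type, 2.12-fold higher. Mael was 2.45-fold and Dazl, an RNA-binding protein of germ cells, 1.88-fold higher in RNAi. The piRNA helicase gene Mov10l1 was 4.53-fold, Sycp1 4.76-fold and Hormad1, a gene of the meiotic chromosome axis, 3.0-fold lower. Mov10l1 had no read in 4 of the 6 RNAi libraries, and of these 6 genes only Brdt kept its call under all 31 alternatives.

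For Apex1, Trim28 and Mat2a the OE libraries were higher than their controls and the RNAi libraries lower than theirs, and for Neil3, Mat2b and Brdt the reverse held. Zfp57 and Mael were higher in both. These are only the list genes named in both comparisons, and the share of all genes with opposite directions is not given here. The comparisons share no library, and the difference between ESCs and embryos was not tested. In the ESCs, markers of fibroblasts or feeder cells summed to 6140 and 8205 normalised reads in OE, against 2945 and 3019 in wild type, with 3 of 11 higher and 3 lower. Tagln alone averaged 4424 in OE and 237 in wild type, while Thy1, Pdgfrb and Twist1 fell. Of 8 defining ESC genes, none was at 0 in any ESC library. The part of these levels in the results was not tested.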

How the data were processed

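The unit of the deposited values is a normalised signal: in each of the 2 tables, the authors' read counts had been divided by a size factor per library. The values show this, since 100% of them are whole multiples of 1 read within 0.01 read. Per the submitters' processing notes, Trimmomatic, HISAT2 and featureCounts were used with mm10. Tool versions, annotation and strand setting were not given in the sources used here. Columns that could not be matched to a group numbered 0. The embryo wild type columns are numbered 1 to 5 and the labels 3 to 7, so numbers only name libraries.

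From these values, limma 3.58.1 with a trend was run on log2(value + 1), for genes of at least 1 in at least 2 ESC or 5 embryo libraries, with Benjamini-Hochberg adjustment over all genes tested. This scale understates changes of low genes, and folds are ratios of group means. The count test, edgeR 4.0.16 on the recovered reads, called 4510 genes in the ESCs and 2169 in the embryos. Other alternatives were DESeq2 1.42.0, voom with quality weights, other scalings, pseudocounts and filters, and each library left out. Replicates, compared by chi-square on their reads, all differed beyond sampling noise. Floors are 3 reads and cover counting error only. Gene positions and lengths come from GENCODE vM21, which matched 51434 of 51627 and 53415 of 53564 genes.

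The members and lists were chosen with earlier results of these data known. All 10 members are named, and from each pathway list up to 3 genes per direction with the smallest p among those past the threshold. 1 gene that this rule names is not reported here. The genes most like Gadd45b were sought among genes with a mean of at least 20.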

Additional observations from a re-analysis of the deposited data

Results flagged for a closer look

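Of 20 groups of embryo values tested for a library far from the others of its group, 5 held one. The rule flags about 1 in 20 groups only for normally distributed values. Normalised reads need not be so, and the groups share the same libraries, so 5 cannot be read against that rate. Uhrf1 in RNAi library 6 had 304 normalised reads while the other RNAi libraries had 75.6 to 129. Tet3 in the same library had 391, the others 208 to 247. Dnmt1 in RNAi library 1 had 17.2, the others 38.2 to 47.6. Uhrf1 in wild type library 5 had 296, the other wild type libraries 69.6 to 115. Dnmt3l in the same library had 176, the others 42.8 to 58.4. No explanation was tested for any of these.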

How the results depend on the processing

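Dnmt3b in ESCs kept its direction under all 18 alternatives and Gadd45b in embryos its direction and call under all 31. In ESCs, 8 genes gave 144 values under alternatives, of which 10 turned sign. In embryos, 10 genes gave 309, of which 26 turned sign, none of a called gene. The cause of these changes was not tested.

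Leaving out 1 library and keeping the tested genes moved the number of ESC genes called between 0 and 10855, against 4843, and of the 8 named genes between 0 and 6. With 1 library left in a group, that library is assumed to vary like the other group. With the filter applied anew, an alternative chosen after seeing the data, the counts were 12614 and 11337 without OE library 1 and 2, each with 7 named genes, and 2117 and 2173 without wild type library 1 and 2. For the embryos, leaving out 1 library gave 1730 to 3578 genes, against 2983, and 1 to 2 named genes. With the filter applied anew, it gave 1742, 1922 and 1744 without wild type libraries 2, 3 and 4. DESeq2 called 2 of the ESC genes, Dnmt3b and Dppa3, and voom with quality weights 2 of the embryo genes, Gadd45b and Tet3. Over all ESC genes, voom with quality weights called 2050 higher and 1231 lower, against 2453 and 2390. In the embryos, 33.8% of calls were higher, against 46.5% under quantile normalisation, where the median of all genes moved by 0.17 on the log2 scale, and by 0.121 with edgeR and 0.112 with voom.

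The log2 fold changes that turned sign belong to genes not called with all libraries. In ESCs they were Tet1 at 0.083 with edgeR, 0.089 with DESeq2 and 0.79 without OE library 2. Tet2 was -1.10 without OE library 1 and -0.018 without wild type library 1, and Tet3 0.21 without OE library 2. In embryos, Tet2 was 0.10 with quantile normalisation, 0.54 with voom, 0.40 without RNAi library 4, and 0.023, 0.13 and 0.19 without wild type libraries 1, 4 and 5. Dppa3 was -0.56 with quantile normalisation, -0.0067 with voom, and -0.070, -0.028 and -0.21 without RNAi libraries 4 and 6 and wild type library 5. Without RNAi library 6, Uhrf1 was -0.10 and Dnmt3a -0.057. Dnmt3a was -0.053 without wild type library 3 and Dnmt1 -0.0034 without wild type library 1. Applying the filter anew gave the same values. Over the libraries left out, the log2 fold changes ran in ESCs from -1.29 to 0.79 for Tet1, -1.10 to 1.18 for Tet2 and -1.19 to 0.21 for Tet3. In embryos they ran from -0.0034 to 0.36 for Dnmt1, -0.10 to 0.53 for Uhrf1, -0.057 to 0.29 for Dnmt3a, -0.67 to 0.40 for Tet2 and -0.21 to 0.21 for Dppa3.

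The log2 ratio of the Zscan4 sums was 6.54 to 7.02 in ESCs and -1.89 to -1.43 in embryos over the libraries left out. Replicate numbers are shared by the ESC groups. Deviations of OE 1 and wild type 1 from their group means were not related (r = -0.00719 over 20888 genes). The wild type libraries differed little (median SD of log2 levels 0.0907). This check therefore cannot decide whether libraries with the same number were paired. With the replicate block, 6024 ESC genes were called, and the same 1 of the 8 named genes. No paired analysis was possible for the embryos because the columns carry other numbers than the labels. Tet1, Tet2 and Dnmt3b rest on 31 to 104 reads per group in embryos, and the parts of depth and of spread between libraries were not tested apart.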
